A study of Mus musculus with 12 samples.

Results

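Cytochrome P450 enzymes are haem-containing monooxygenases, most of them bound to the endoplasmic reticulum. The genes of the family were taken as those with a symbol made of Cyp, a number, a letter and a second number, followed or not by another letter. Cyp27b1 and Cyp24a1 were left out. This gave 79 of the 25553 genes measured by RNA sequencing in whole kidneys of 12 wild-type mice, 3 in each of 4 groups. HR mice were preconditioned by hypoxia and then had renal ischemia-reperfusion injury (RIRI), NR mice had RIRI without preconditioning, HS mice were preconditioned and sham operated, and NS mice, kept in normal air, were sham operated. For RIRI both renal pedicles were clamped for 45 min and the kidneys were taken after 12 h of reperfusion. The preconditioning sessions, at 8% oxygen, lasted 2, 4 and 8 h on successive days. The sources used here give no strain, age or sex of the mice.

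In the kidney most P450 genes are transcribed in the proximal tubule. Enzymes of family 4 hydroxylate fatty acids at the omega end, and some of them turn arachidonic acid into 20-HETE, a constrictor of renal arterioles. Several enzymes of subfamilies 2c and 2j turn arachidonic acid into epoxides (EETs), which widen vessels and act on sodium transport. Families 1 and 3 and several subfamilies of family 2 oxidise drugs and other foreign compounds, and smaller families act on bile acids, oxysterols, retinoic acid and steroid hormones. Electrons reach most of these enzymes from the reductase encoded by Por.

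Expression was given as FPKM, a count of fragments scaled by gene length and library size, and the depth recovered from these values was 32341191 to 34976518 reads per library. Of the 79 genes, 33 were tested because 3 libraries or more had 1 FPKM or more. Of these 33, 29 reached that level in all 12 libraries, and the other 4, Cyp2u1, Cyp26b1, Cyp2f2 and Cyp2b10, did so in libraries of 2 or 3 groups. The other 46 were below this level, and were tested only in an alternative fit with no filter. Of them, 32 stayed under 0.1 FPKM in every library, and the highest single value was 1.60 FPKM, for Cyp4f18. All 5 genes of the Cyp3a cluster on chromosome 5 and all 8 Cyp2c genes of the chromosome 19 cluster that holds Cyp2c29 were below the filter. The 4 genes of steroid hormone synthesis had at most 0.0797 FPKM in any library, and the adrenal markers Nr5a1 and Star had at most 0.0094 and 0.883 FPKM. Akr1b7, an aldo-keto reductase on the same marker list, had 3.81 to 6.22 FPKM in HR, 4.93 to 14.5 in NR, 1.88 to 2.74 in HS and 1.46 to 2.37 in NS libraries. Tested as described below, it rose in HR against HS (log2 fold change 0.81 ± 0.30, adjusted p = 0.0376) and in NR against NS kidneys (1.94 ± 0.30, adjusted p = 9.66e-05), and its part in the P450 levels was not tested. Every library had at most 0.0066 FPKM of Xist and at least 1.1 FPKM of each Y-linked gene examined, the pattern of male tissue. Library 2 of the NR group, library 2 of the HR group and library 3 of the HS group stood apart within their groups. NR2 was the library farthest from the middle one of its group in 20 of the 33 tested P450 genes (60.6%) and in 42.7% of all tested genes, HR2 in 16 of 33 (48.5%) and in 41.7%, and HS3 in 17 of 33 (51.5%) and in 38.0%.

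Summed over the 79 genes, P450 transcripts came to 3185 ± 380 FPKM in HR, 2996 ± 198 in NR, 4104 ± 438 in HS and 5254 ± 168 in NS kidneys (SD, n = 3 each). NR kidneys thus held 57.0% of the NS sum, HR kidneys 77.6% of the HS sum and HS kidneys 78.1% of the NS sum. The sum rested on few genes. Cyp4b1 alone made up 34.4% of it in HR, 46.5% in NR, 35.8% in HS and 45.1% in NS kidneys. Cyp2a5 ranked second in HR kidneys, with 13.8%, and was not among the 8 leading genes in HS and NS kidneys. In whole kidney, fewer cells of a type and less RNA per cell cannot be told apart.

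**Figure D1:**
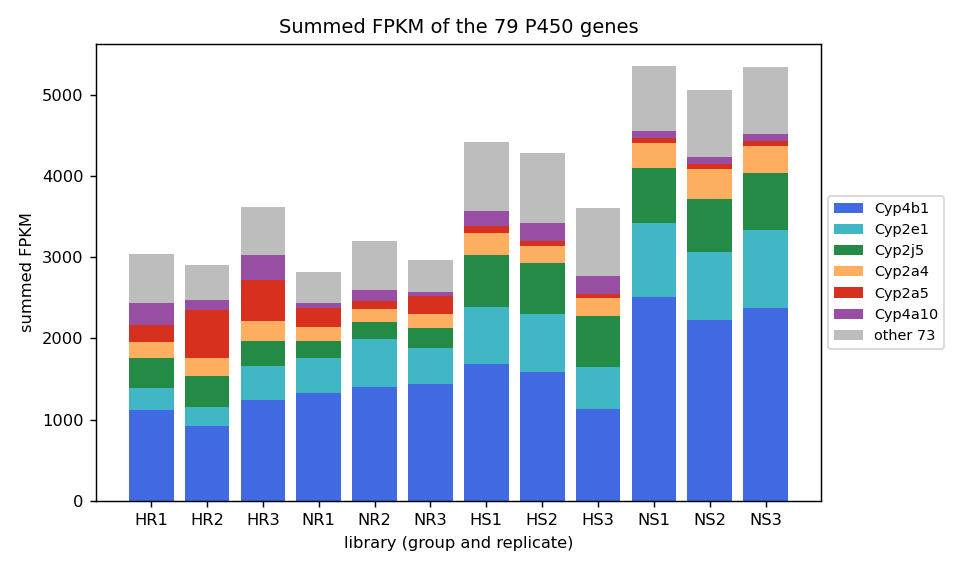
Summed FPKM of the 79 P450 genes in each of the 12 libraries (bars), split into the 6 genes named in the legend and all others. The 3 NS libraries have the tallest bars, between 5061 and 5360 FPKM, and Cyp2a5 takes a visible share in the RIRI libraries.

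Each gene was tested with limma on log2(FPKM + 1) and called at a Benjamini-Hochberg adjusted p under 0.05 over all 12357 tested genes. All fold changes below are log2 values on that scale with their standard error (SE), and all adjusted p values are from limma. In NR against NS kidneys, 10 of the 33 P450 genes were higher and 17 lower, where 41.6% of all tested genes were higher and 30.1% lower. Lower calls made up 51.5% of the P450 genes tested. The median log2 fold change was -0.34 over the 33 genes and 0.10 over all tested genes. In HR against HS kidneys 7 were higher and 15 lower, with 33.0% of all genes higher and 19.4% lower, and the medians were -0.19 and 0.10.

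Between the RIRI groups, HR against NR, 10 P450 genes were higher and 4 lower, where 24.7% of all tested genes were higher and 17.4% lower. Median-ratio rescaling of the libraries gave 9 higher and 7 lower, and moved the median log2 fold change of all tested genes from 0.059 to -0.023. The shares of all genes called after rescaling are not given, here or in the comparisons below. The rescaled counts therefore have no background to be read against. Without rescaling, the P450 share of calls, 42.4%, was close to the 42.1% of all genes. The count was 18 without NR2, where 35.5% of all genes were called, and 11 without HR2, where 31.1% were. In HS against NS kidneys 1 P450 gene was higher and 1 lower, where 0.186% of all genes were higher and 0.235% lower. An unadjusted p under 0.05 was reached by 13 of the 33. The share of all genes with such a p was not computed, so that this count has no background to be read against. Median-ratio rescaling gave 0 higher and 3 lower there. The injury effect of preconditioned mice minus that of normoxic mice, the interaction, was positive in 4 P450 genes and negative in 1, with 11.3% of all genes positive and 12.6% negative, and in 4 and 0 after median-ratio rescaling. Without NR2 it was called in 8 P450 genes and in 22.1% of all genes. NR against NS and HR against NR share the NR libraries, and HR against HS and HR against NR share the HR libraries, so that these comparisons are not independent.

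**Figure D2:**
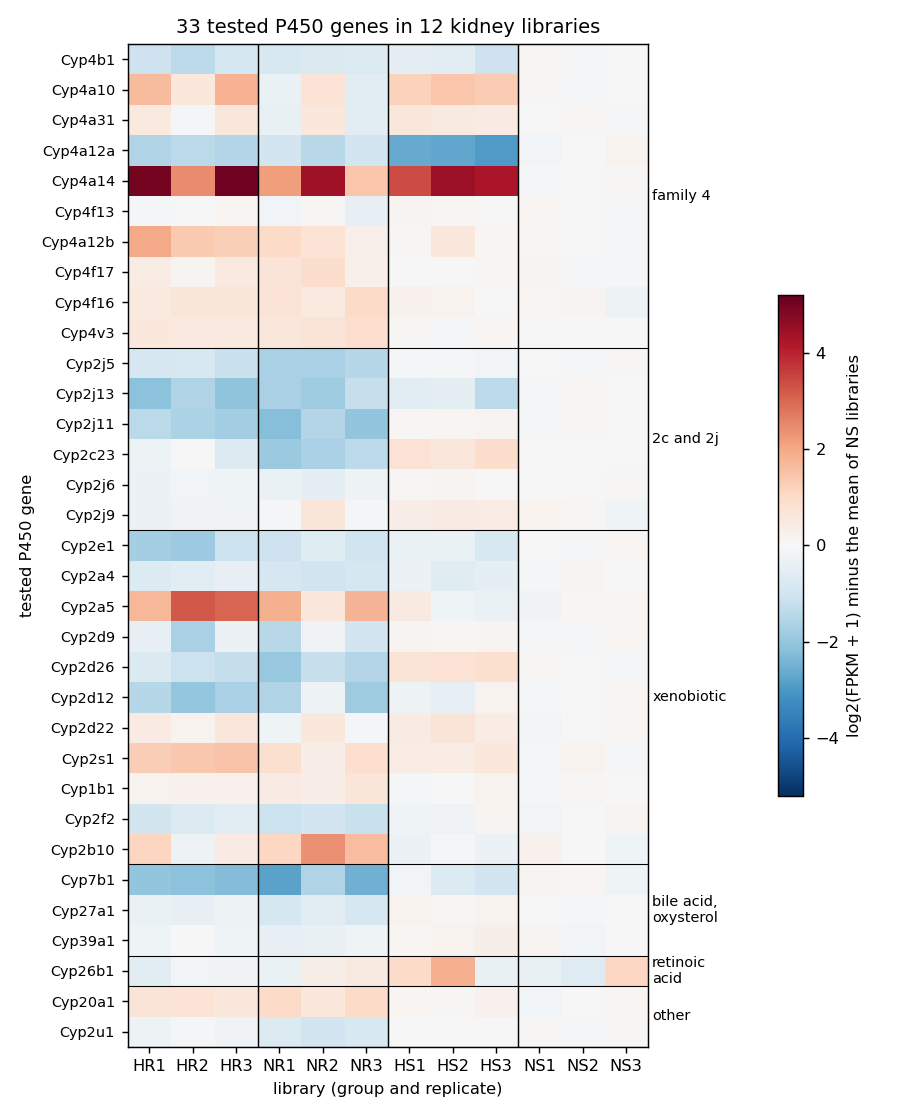
Log2(FPKM + 1) of the 33 tested P450 genes (rows, grouped by role) in each of the 12 libraries (columns), relative to the mean of the NS libraries. Red is above and blue below the NS mean; Cyp4a14 is red in all HR, NR and HS libraries, Cyp4a12a is darkest blue in HS, and the 2c and 2j rows are mostly blue in HR and NR.

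The omega-hydroxylase family 4 had 20 members, of which 10 were tested. In NR against NS kidneys 5 rose and 2 fell, where 41.6% of all tested genes were higher and 30.1% lower. In HR against HS kidneys 4 rose and 1 fell, where 33.0% of all tested genes were higher and 19.4% lower. Cyp4b1, which oxidises short and medium fatty acids and some aromatic compounds, was the most abundant P450 transcript of every group. It had 1121, 918 and 1246 FPKM in HR, 1328, 1408 and 1442 in NR, 1685, 1590 and 1133 in HS, and 2515, 2224 and 2371 in NS kidneys. The NS libraries lay above all others, and the HS libraries overlapped the HR libraries. Cyp4b1 fell in NR against NS kidneys (log2 fold change -0.77 ± 0.14, adjusted p = 0.000457). It was also lower in HR against HS kidneys (-0.41 ± 0.14, adjusted p = 0.0298), a call that was lost without HS1, HS2, HR1 or HR2, with adjusted p of 0.121, 0.105, 0.0538 and 0.113, and that quantile normalization ended as well (0.422). In HS against NS kidneys the difference was -0.71 ± 0.14, short of the threshold (adjusted p = 0.0633).

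Cyp4a12a makes 20-HETE in the mouse and is known in that species as a male-predominant gene induced by androgen. It lies on chromosome 4 from 115299046 to 115332815 on mm10, in a cluster of 10 P450 genes. Its values were 27.6, 31.0 and 28.6 FPKM in HR, 42.3, 30.2 and 42.0 in NR, 12.9, 12.1 and 10.2 in HS, and 75.6, 82.0 and 95.9 in NS kidneys. HS kidneys held the lowest levels and NS kidneys the highest, with both RIRI groups between them and no overlap except between HR and NR. HS kidneys held 13.9% of the NS mean, and the change of -2.75 ± 0.13 (adjusted p = 2.28e-06) had the smallest p of all 12357 genes and was second in size. It was kept under all 21 alternatives that gave a value, from -2.84 to -2.66. The gene rested on 815 to 1067 recovered reads per HS library and on 6182 to 8294 per NS library.

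The injury effect on Cyp4a12a ran in opposite directions by preconditioning. It was 1.25 ± 0.14 in HR against HS kidneys (adjusted p = 1.94e-05) and -1.14 ± 0.14 in NR against NS kidneys (adjusted p = 1.21e-05). The difference between these effects, 2.38 ± 0.19, passed the test (adjusted p = 7.56e-05). Between HR and NR kidneys the call (-0.37 ± 0.14, adjusted p = 0.0472) was lost under 13 of 21 alternatives, among them the removal of any one of NS1, NS2, NR1, NR3, HS1, HS2, HR1, HR2 or HR3, with adjusted p from 0.0508 to 0.149.

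Cyp4a12b is a near copy of Cyp4a12a: 41.3% of the 75-base windows of its transcript also occur in Cyp4a12a, so that reads may be assigned to either gene. It had 27.2, 17.3 and 16.0 FPKM in HR, 13.4, 10.6 and 7.66 in NR, 6.48, 9.36 and 6.57 in HS, and 6.55, 6.18 and 5.73 in NS kidneys. The HR libraries lay above all others. Cyp4a12b rose in HR against HS (1.30 ± 0.21, adjusted p = 0.00034) and in HR against NR kidneys (0.87 ± 0.21, adjusted p = 0.00698). In NR against NS kidneys it rose by 0.66 ± 0.21 (adjusted p = 0.0141), a call lost without NR1 (0.0633). Cyp4a12a took 92.0% to 94.4% of the FPKM of the pair in NS kidneys, but 56.3% to 66.6% in HS and 50.4% to 64.2% in HR kidneys. With the FPKM of both summed into 1 row, an alternative chosen after seeing the data, HS against NS was -2.18 (adjusted p = 1.85e-05) and HR against NR was 0.02 (adjusted p = 0.908).

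Cyp4a10 and Cyp4a14 are classic targets of the fatty acid receptor PPAR alpha in mouse liver and kidney. Cyp4a14 had 88.3, 14.2 and 91.1 FPKM in HR, 11.7, 59.1 and 6.64 in NR, 28.3, 60.3 and 51.8 in HS, and 1.72, 1.75 and 1.93 in NS kidneys. Every library of the other groups lay above the NS libraries, and HR2 and NR2 were the outliers of their groups in opposite directions. The change of HS against NS, 4.03 ± 0.75, was the largest of all 12357 genes and sat at the threshold (adjusted p = 0.0474). It kept that size, from 3.81 to 4.63, under all 22 alternatives, but 15 of them took its adjusted p above 0.05. These included leaving out any one library of NS (0.139, 0.14 and 0.215) or of HS (0.0769, 0.119 and 0.187), or NR1 (0.0615), HR1 (0.0554) or HR3 (0.0557). In NR against NS kidneys Cyp4a14 rose by 2.69 ± 0.75 (adjusted p = 0.00691), and by 1.82 without NR2.

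Cyp4a10 had 265, 123 and 300.4 FPKM in HR, 66.7, 138 and 55.4 in NR, 194, 229 and 212 in HS, and 87.2, 80.2 and 85.7 in NS kidneys. HS libraries were all above NS libraries, while HR2 fell below NR2. In HR against NR kidneys Cyp4a10 rose by 1.41 ± 0.34 (adjusted p = 0.00639), by 1.80 without NR2 and by 1.81 without HR2. The HS against NS difference of 1.31 ± 0.34 did not pass (adjusted p = 0.141), and passed only when HS and NS were fitted alone (adjusted p = 0.00082). Cyp4a31, a neighbour in the same cluster, followed a like order, with 127, 86.2 and 135 FPKM in HR, 68.8, 129.9 and 61.4 in NR, 137, 123 and 122 in HS, and 88.9, 93.1 and 85.9 in NS kidneys, and was called in no comparison. Of Cyp4a10 and Cyp4a31, 19.1% and 13.9% of the transcript windows are shared with other genes, mostly Cyp4a32, and of Cyp4a14 none.

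**Figure D3:**
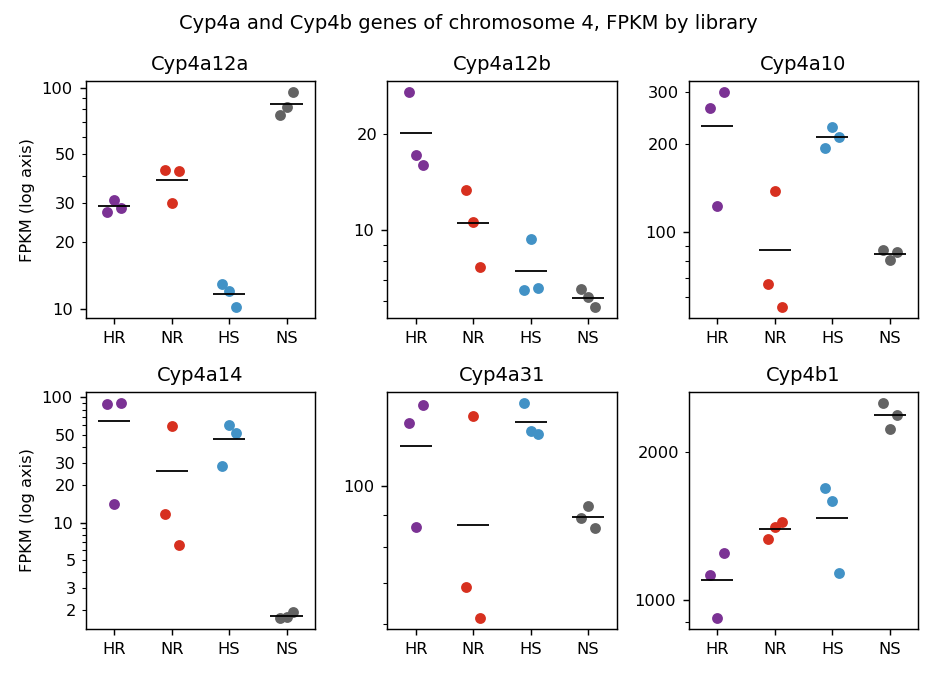
FPKM (log axis, a separate scale per gene) of 6 P450 genes of 1 cluster in the HR, NR, HS and NS groups; each point is a library and each line a group mean. Cyp4a12a is lowest in HS and highest in NS, Cyp4a14 is lowest in NS, and 1 HR library and 1 NR library of Cyp4a10, Cyp4a14 and Cyp4a31 lie away from the other 2 of their group.

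Among the other tested members of family 4, Cyp4v3, a fatty acid hydroxylase whose human counterpart is mutated in a retinal dystrophy, rose in NR against NS (0.70 ± 0.08, adjusted p = 1.03e-05) and in HR against HS kidneys (0.48 ± 0.08, adjusted p = 0.000458). Its FPKM was 2.85 ± 0.05 in HR, 3.37 ± 0.43 in NR, 1.77 ± 0.14 in HS and 1.69 ± 0.04 in NS kidneys (SD, n = 3 each). Cyp4f16 rose in NR against NS (0.74 ± 0.14, adjusted p = 0.000397) and in HR against HS (0.45 ± 0.14, adjusted p = 0.016, and 0.0614 without HS3). Cyp4f17 rose in NR against NS kidneys (0.62 ± 0.15, adjusted p = 0.00259). Cyp4f16 and Cyp4f17 sit in the chromosome 17 cluster of Cyp4f genes, of which 3 of 8 were tested.

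Of 16 genes in the epoxygenase subfamilies 2c and 2j, 6 were tested. In NR against NS kidneys 0 of them rose and 5 fell, where 41.6% of all tested genes were higher and 30.1% lower. In HR against HS kidneys 0 rose and 6 fell, where 33.0% of all tested genes were higher and 19.4% lower. The summed FPKM of all 16 was 420.2 ± 50.4 in HR, 291 ± 27.6 in NR, 812 ± 23.3 in HS and 896 ± 22.9 in NS kidneys (SD, n = 3 each). HR kidneys thus held 51.8% of the HS sum and NR kidneys 32.5% of the NS sum. The 10 proximal tubule marker genes also fell in both, 10 of 10 each time. In HR against NR kidneys 7 of these 10 were higher and 0 lower, where 24.7% of all tested genes were higher and 17.4% lower. The interaction was positive in 7 of the 10 and negative in 0, against 11.3% and 12.6% of all tested genes. The summed FPKM of the 10 markers was 2421 to 2844 in HR, 1605 to 2082 in NR, 5428 to 5547 in HS and 5465 to 5757 in NS libraries. None of the 10 was at 0. Their part in the P450 changes was not tested.

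Cyp2j5, an arachidonic acid epoxygenase of mouse kidney and liver, was the leading gene of this class. It had 369, 381 and 304 FPKM in HR, 212, 212.5 and 246 in NR, 631, 634 and 622 in HS, and 676, 660.3 and 712 in NS kidneys. No 2 groups overlapped. Cyp2j5 fell by 1.61 ± 0.09 in NR against NS (adjusted p = 3.51e-08) and by 0.85 ± 0.09 in HR against HS kidneys (adjusted p = 1.82e-05). It was higher in HR than in NR kidneys (0.64 ± 0.09, adjusted p = 0.000295), and the injury effects differed by 0.76 ± 0.13 (adjusted p = 0.00242). All 4 calls were kept in every other fit and rescaling tried, and the NR against NS change alone was at least 2-fold.

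Cyp2c23 is the mouse counterpart of the main renal epoxygenase of the rat. It had 8.55, 10.5 and 5.95 FPKM in HR, 1.96, 2.50 and 3.46 in NR, 17.9, 16.2 and 20.2 in HS, and 10.2, 10.2 and 10.6 in NS kidneys. HS libraries were highest and NR libraries lowest, and HR libraries overlapped NS libraries. Cyp2c23 fell by 1.66 ± 0.18 in NR against NS (adjusted p = 4.88e-06) and by 1.06 ± 0.18 in HR against HS kidneys (adjusted p = 0.000412), and was higher in HR than in NR kidneys (1.35 ± 0.18, adjusted p = 0.000193). The difference between the injury effects, 0.60 ± 0.25, did not pass (adjusted p = 0.101).

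Cyp2j11 and Cyp2j13 are further members of the mouse 2j cluster, Cyp2j13 being described as male-predominant in mouse kidney. Cyp2j11 had 31.3, 26.2 and 23.7 FPKM in HR, 17.5, 28.4 and 19.4 in NR, 88.4, 91.9 and 93.5 in HS, and 82.0, 87.8 and 83.6 in NS kidneys. It fell with injury in both arms, by 1.73 ± 0.15 in HR against HS (adjusted p = 3.68e-06) and by 1.94 ± 0.15 in NR against NS kidneys (adjusted p = 3.15e-07). The difference between them was 0.21 ± 0.21 (adjusted p = 0.491). Cyp2j13 had 25.0, 37.1 and 25.8 FPKM in HR, 34.4, 30.9 and 48.3 in NR, 74.7, 81.9 and 43.6 in HS, and 109, 118 and 110.3 in NS kidneys. It fell by 1.13 ± 0.23 in HR against HS (adjusted p = 0.0015) and by 1.57 ± 0.23 in NR against NS kidneys (adjusted p = 6.61e-05), and its HR and NR libraries overlapped.

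Cyp2j9, a member of subfamily 2j described mainly in mouse brain, was expressed at a low level. It had 1.13, 1.30 and 1.32 FPKM in HR, 1.46, 2.97 and 1.45 in NR, 2.28, 2.52 and 2.35 in HS, and 1.92, 1.68 and 1.23 in NS kidneys. It fell by 0.59 ± 0.17 in HR against HS kidneys (adjusted p = 0.0107), and NR2 was the highest of all 12 libraries. The injury effects differed by -0.74 ± 0.24 (adjusted p = 0.0403), and by -1.15 by voom on recovered reads. That call was lost without NS2, NS3 or any one HS or HR library, with adjusted p from 0.0575 to 0.0927.

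Of 28 genes in the xenobiotic class 11 were tested, with 4 higher and 6 lower in NR against NS kidneys and 2 higher and 5 lower in HR against HS kidneys. Of all tested genes, 41.6% were higher and 30.1% lower in NR against NS, and 33.0% higher and 19.4% lower in HR against HS kidneys. Cyp2a5 and Cyp2a4 are close relatives that moved in different directions in NR against NS kidneys. The Cyp2a5 enzyme hydroxylates coumarin and is known to be induced in stressed mouse liver, and the Cyp2a4 enzyme is known as a testosterone hydroxylase. Both lie on mm10 chromosome 7, Cyp2a5 from 26835305 to 26843548 and Cyp2a4 from 26307169 to 26315088. Their promoters (RefSeq, GRCm38.p6, both on the plus strand, 250 bases before and 50 after the start) are shown because they are nearly the same sequence while the 2 transcripts moved apart. The Cyp2a5 window is chr7:26835089-26835388 and the Cyp2a4 window is chr7:26306942-26307241. Capitals mark the bases that differ in the alignment.
Cyp2a5: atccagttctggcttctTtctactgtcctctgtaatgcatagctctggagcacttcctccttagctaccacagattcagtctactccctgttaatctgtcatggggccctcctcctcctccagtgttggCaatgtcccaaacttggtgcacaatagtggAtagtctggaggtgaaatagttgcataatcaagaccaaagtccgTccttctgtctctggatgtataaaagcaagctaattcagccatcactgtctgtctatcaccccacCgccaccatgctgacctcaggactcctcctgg
Cyp2a4: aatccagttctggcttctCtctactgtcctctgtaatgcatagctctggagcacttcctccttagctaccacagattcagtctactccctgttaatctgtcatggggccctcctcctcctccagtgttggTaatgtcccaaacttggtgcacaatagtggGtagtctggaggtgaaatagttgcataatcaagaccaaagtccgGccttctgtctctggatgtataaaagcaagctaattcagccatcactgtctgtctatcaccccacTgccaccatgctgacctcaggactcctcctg
Of 299 aligned bases 294 were identical (98.3%), with 5 substitutions and no gap. Counted from the first base of the Cyp2a5 window, with the Cyp2a5 base first, they were T18C, C130T, A160G, T204G and C269T. The letters TATAAA, the usual core of the element that places the start of transcription, occurred once in each window on the plus strand, at base 222 for Cyp2a5 and 223 for Cyp2a4. TATAAA was found on either strand in 7 of the 22 promoters given for 21 of the tested P450 genes and in 13.6% of 32544 mouse promoters. A match to these letters is a description and does not show that a factor binds.

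Cyp2a5 had 209, 595 and 511 FPKM in HR, 228.5, 90.3 and 213 in NR, 87.0, 53.6 and 49.2 in HS, and 55.3, 65.9 and 66.1 in NS kidneys. All RIRI libraries lay above all sham libraries, HR1 lay within the NR range, and HS and NS overlapped. It rose by 2.69 ± 0.41 in HR against HS (adjusted p = 0.000207) and by 1.38 ± 0.41 in NR against NS kidneys (adjusted p = 0.00896). The difference between the injury effects, 1.30 ± 0.58, did not pass (adjusted p = 0.12). In HR against NR kidneys Cyp2a5 was higher by 1.28 ± 0.41 (adjusted p = 0.0254), but the call was lost without NR2 (0.85, adjusted p = 0.102), without HR2 (0.99, adjusted p = 0.103) or without HR3 (adjusted p = 0.084).

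Cyp2a4 had 202, 219 and 246 FPKM in HR, 178, 161 and 173 in NR, 271, 211 and 232 in HS, and 310.5, 360.1 and 322 in NS kidneys. NR libraries were lowest and NS libraries highest, and HR overlapped HS. It fell by 0.95 ± 0.10 in NR against NS kidneys (adjusted p = 5.86e-06), and was -0.09 ± 0.10 in HR against HS kidneys (adjusted p = 0.468). These effects differed by 0.86 ± 0.15 (adjusted p = 0.00254). Cyp2a4 was higher in HR than in NR kidneys (0.38 ± 0.10, adjusted p = 0.0131, and 0.0516 without HR3).

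Cyp2a5 made up 50.8% to 73.1% of the FPKM of the pair in HR, 35.9% to 56.3% in NR, 17.5% to 24.3% in HS and 15.1% to 17.01% in NS kidneys. About as much of each transcript is shared with the other, 18.0% of the 75-base windows of Cyp2a5 and 20.97% of those of Cyp2a4. Summed into 1 row, the pair was -0.20 in NR against NS (adjusted p = 0.469) and 1.08 in HR against HS kidneys (adjusted p = 0.00301), and the injury effects on the sum differed by 1.29 (adjusted p = 0.0208).

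**Figure D4:**
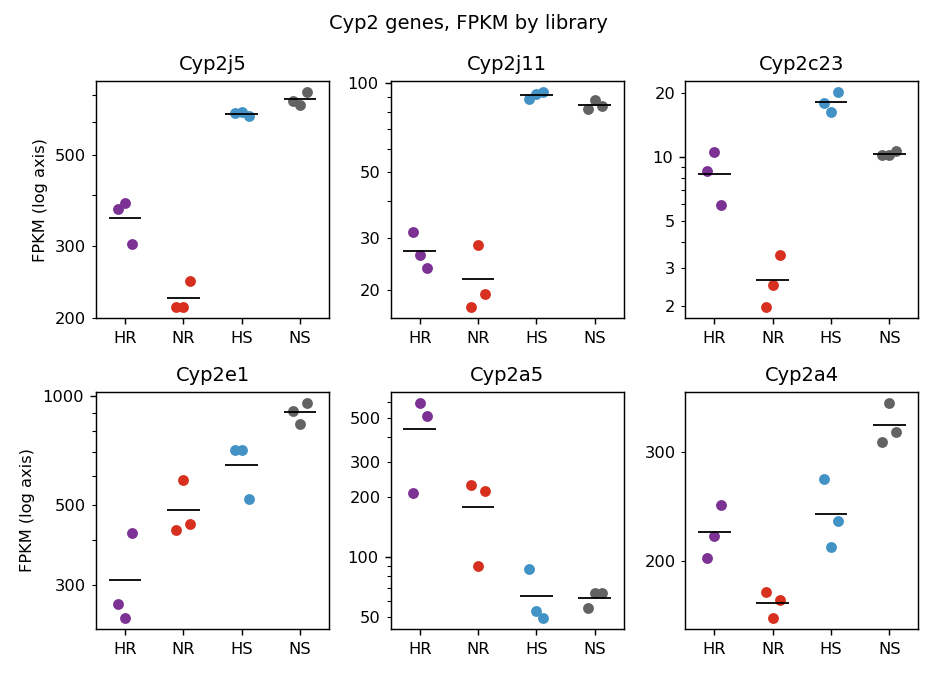
FPKM (log axis, a separate scale per gene) of 3 genes of the epoxygenase subfamilies (upper row) and 3 xenobiotic genes (lower row) in the HR, NR, HS and NS groups; points are libraries and lines group means. Cyp2j5 and Cyp2c23 are higher in HR than in NR, Cyp2j11 overlaps between them, and Cyp2a5 is high in the RIRI groups where Cyp2a4 is not.

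Cyp2e1, which oxidises ethanol and other small molecules, was the second most abundant P450 transcript of NR, HS and NS kidneys. It had 265, 243 and 419 FPKM in HR, 427, 586 and 443 in NR, 709, 708 and 518 in HS, and 913, 840.0 and 962 in NS kidneys. Each RIRI group lay below its own sham group, and HR below NR. Cyp2e1 fell by 1.09 ± 0.20 in HR against HS (adjusted p = 0.000727) and by 0.91 ± 0.20 in NR against NS kidneys (adjusted p = 0.00131). In HR against NR kidneys it fell by 0.68 ± 0.20 (adjusted p = 0.017), a call lost without NR2 (0.0679), HR1 (0.0566) or HR2 (0.0734). The other P450 genes called lower in HR than in NR kidneys were Cyp2b10, Cyp4a12a and Cyp1b1.

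The Cyp2d genes of chromosome 15, relatives of the human drug-metabolising CYP2D6, had 4 of 8 members tested. Cyp2d26 had 52.0, 40.6 and 36.6 FPKM in HR, 22.1, 38.0 and 29.9 in NR, 139.7, 148 and 158 in HS, and 92.0, 90.3 and 82.6 in NS kidneys. HS libraries were highest, all above NS, and HR overlapped NR. It fell by 1.78 ± 0.17 in HR against HS (adjusted p = 7.46e-06) and by 1.56 ± 0.17 in NR against NS kidneys (adjusted p = 5.37e-06). The HR against NR call (0.53 ± 0.17, adjusted p = 0.0261) was lost without NR1 (0.33, adjusted p = 0.0818), NR3 (0.0526) or HR1 (0.0969), and median-ratio rescaling of the libraries ended it too (0.0835).

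Cyp2d12 had 25.4, 17.2 and 22.3 FPKM in HR, 24.5, 60.7 and 19.4 in NR, 60.3, 54.1 and 82.6 in HS, and 68.2, 74.1 and 78.0 in NS kidneys. NR2 lay close to the sham libraries and the other NR libraries did not. Cyp2d12 fell by 1.55 ± 0.32 in HR against HS (adjusted p = 0.00178) and by 1.23 ± 0.32 in NR against NS kidneys (adjusted p = 0.0048), or by 1.70 without NR2. Cyp2d9 had 82.7, 34.0 and 90.4 FPKM in HR, 39.6, 98.0 and 54.4 in NR, 122, 118 and 122.5 in HS, and 106, 107 and 119.9 in NS kidneys. Its lower calls in HR against HS (-0.92 ± 0.35, adjusted p = 0.0422) and NR against NS (-0.88 ± 0.35, adjusted p = 0.0367) were both near the threshold. Each was lost on the removal of any of several libraries. The HR against HS value was -0.48 without HR2 (adjusted p = 0.159), and that call was also lost without NR3 or any one NS or HS library (0.052 to 0.0883). The NR against NS call was lost without NR1 (0.151), NR3 (0.0921) or any one NS library (0.0657 to 0.0904).

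Among less abundant xenobiotic genes, Cyp2s1, an epithelial P450, rose with injury and was higher in HR than in NR kidneys. It had 13.8, 15.0 and 15.7 FPKM in HR, 9.77, 6.62 and 10.1 in NR, 6.94, 6.95 and 7.85 in HS, and 4.58, 5.86 and 4.65 in NS kidneys. HR libraries lay above all others. The changes were 0.94 ± 0.14 in HR against HS (adjusted p = 0.000146), 0.69 ± 0.14 in NR against NS (adjusted p = 0.00063) and 0.71 ± 0.14 in HR against NR kidneys (adjusted p = 0.00183). Cyp1b1, which oxidises polycyclic hydrocarbons and estradiol, rose in NR against NS kidneys (0.47 ± 0.09, adjusted p = 0.000682, and by 0.30 after quantile normalization). Its HR against NR call (-0.25 ± 0.09, adjusted p = 0.0453) was lost under 11 of 22 alternatives, among them the removal of NS1, NS2, NS3, NR1, NR3, HS2, HR1, HR2 or HR3 (adjusted p from 0.0522 to 0.167).

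Cyp2b10, a phenobarbital-inducible gene of mouse liver, had 1.75, 0.0602 and 0.726 FPKM in HR, 1.70, 5.75 and 2.96 in NR, 0.0468, 0.234 and 0.0483 in HS, and 0.489, 0.288 and 0.104 in NS kidneys. NR libraries lay above all sham libraries, and HR1 lay within the NR range. The NR libraries and HR1 alone reached 1 FPKM, so this gene passed the filter through the group where it was highest. It rose in NR against NS kidneys (1.70 ± 0.34, adjusted p = 0.000771) and was lower in HR than in NR kidneys (-1.28 ± 0.34, adjusted p = 0.0112). The HR against NR call was lost when HR and NR were fitted alone (adjusted p = 0.0514). Cyp2f2, known from the mouse lung, fell in NR against NS (-1.09 ± 0.13, adjusted p = 9.07e-06) and in HR against HS kidneys (-0.67 ± 0.13, adjusted p = 0.000822). Its FPKM was 1.02 ± 0.23 in HR, 0.596 ± 0.096 in NR, 2.22 ± 0.46 in HS and 2.40 ± 0.36 in NS kidneys (SD, n = 3 each). At such levels the pseudocount of 1 holds fold changes down. With a pseudocount of 0.1, Cyp2b10 rose by 3.14 and Cyp2f2 fell by 1.84 in NR against NS kidneys, and by voom on the recovered reads, which fits counts, the values were 3.60 and -2.00. In HR against NR kidneys Cyp2b10 was -2.35 with the smaller pseudocount and -2.80 by voom.

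All 3 tested genes of the bile acid and oxysterol class fell in both injury comparisons, Cyp7b1, Cyp27a1 and Cyp39a1. Of all tested genes, 30.1% were lower in NR against NS and 19.4% in HR against HS kidneys. Cyp7b1, which hydroxylates oxysterols and neurosteroids, had 16.99, 16.1 and 15.0 FPKM in HR, 10.02, 24.8 and 12.4 in NR, 66.8, 45.2 and 36.5 in HS, and 81.4, 79.2 and 64.4 in NS kidneys. It fell by 1.53 ± 0.28 in HR against HS (adjusted p = 0.000704) and fell by 2.27 ± 0.28 in NR against NS kidneys (adjusted p = 1.43e-05), the largest decrease of a P450 gene in that comparison. HR libraries lay inside the NR range. Cyp27a1, the mitochondrial sterol 27-hydroxylase, had 15.1, 14.1 and 15.9 FPKM in HR, 9.77, 12.8 and 10.2 in NR, 22.2, 20.5 and 22.4 in HS, and 20.1, 18.5 and 20.1 in NS kidneys. It fell by 0.50 ± 0.09 in HR against HS (adjusted p = 0.000872) and by 0.79 ± 0.09 in NR against NS kidneys (adjusted p = 1.19e-05), and was higher in HR than in NR kidneys (0.43 ± 0.09, adjusted p = 0.00379).

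Cyp26b1, which breaks down retinoic acid, was the only tested gene of its class and varied more within groups than between them, from 0.365 to 5.43 FPKM among HS libraries and from 0.132 to 2.81 among NS libraries. It was called in no comparison. Of the remaining genes, Cyp20a1, a P450 with no settled substrate, rose in NR against NS (0.86 ± 0.12, adjusted p = 3.22e-05) and in HR against HS kidneys (0.52 ± 0.12, adjusted p = 0.00268). Its FPKM was 12.1 ± 0.67 in HR, 14.2 ± 2.54 in NR, 8.14 ± 0.49 in HS and 7.35 ± 0.67 in NS kidneys (SD, n = 3 each). Cyp2u1, a fatty acid hydroxylase, had 0.835, 1.09 and 0.921 FPKM in HR, 0.355, 0.103 and 0.264 in NR, 1.24, 1.23 and 1.19 in HS, and 1.30, 1.03 and 1.30 in NS kidneys. It was low in all NR libraries. It fell by 0.83 ± 0.10 in NR against NS (adjusted p = 1.16e-05), was -0.19 ± 0.10 in HR against HS (adjusted p = 0.122), and its injury effects differed by 0.64 ± 0.14 (adjusted p = 0.00799). For this gene near 1 FPKM the size rests on the scale: the difference was 1.67 with a pseudocount of 0.1 and 2.08 by voom on recovered reads, and the NR against NS change -2.01 and -2.46.

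**Figure D5:**
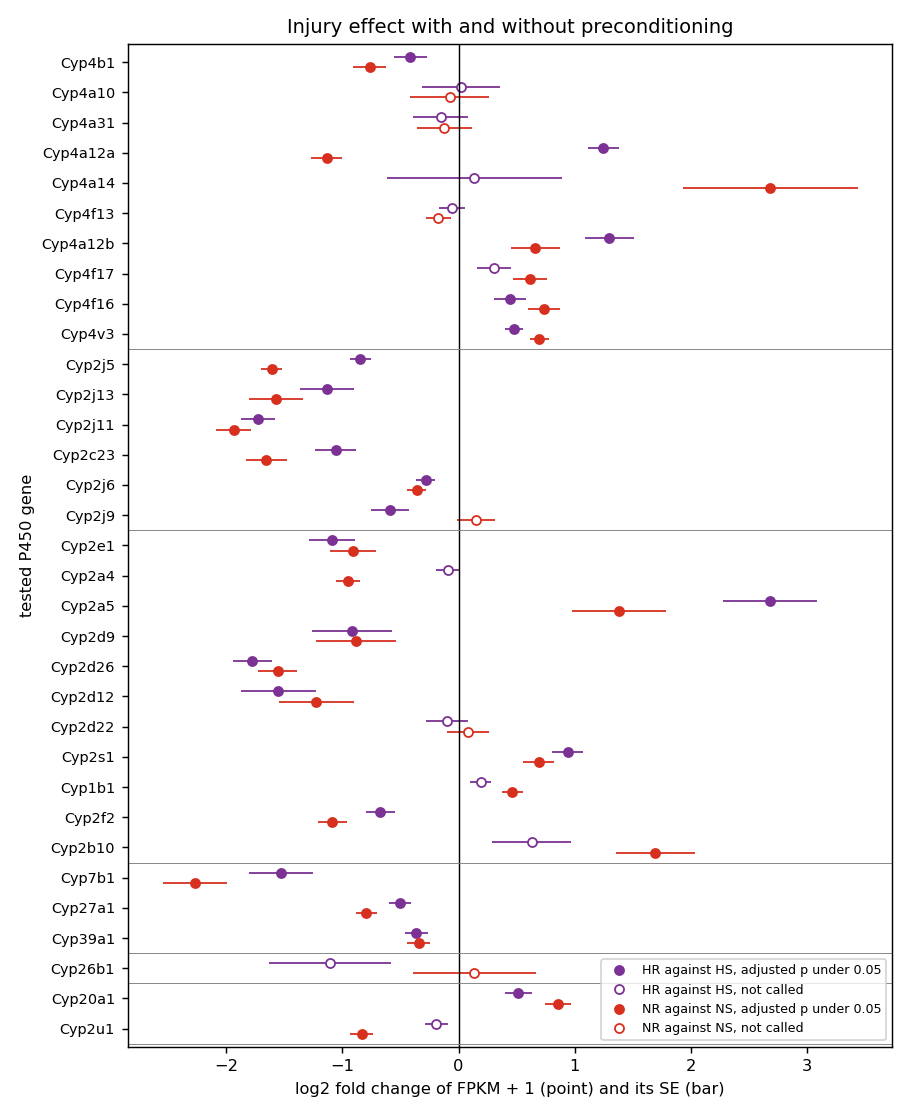
Log2 fold change (points) and SE (bars) of the 33 tested P450 genes in HR against HS (purple) and NR against NS (red); filled points have adjusted p under 0.05 and grey lines separate the role classes. Most 2c, 2j and bile acid genes lie left of 0 in both comparisons, and Cyp4a12a lies on opposite sides.

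Genes that serve P450 enzymes, 34 listed and 27 tested, fell with injury more often than they rose. They include electron donors, haem synthesis, epoxide hydrolases, P450 genes outside the naming rule and transcription factors known to act on P450 genes. Adding up these groups, 6 rose and 16 fell in NR against NS and 5 rose and 12 fell in HR against HS kidneys, and 11 were higher and 2 lower in HR against NR kidneys. The shares of all tested genes higher and lower were 41.6% and 30.1%, 33.0% and 19.4%, and 24.7% and 17.4%, in that order. In HS against NS kidneys limma called 0, and 3 had an unadjusted p under 0.05, for which no share of all genes is given. Hnf4a, a factor of hepatocytes and proximal tubule cells, had 124, 160.5 and 142 FPKM in HR, 57.9, 48.9 and 36.8 in NR, 223, 220.3 and 181 in HS, and 225, 194 and 222 in NS kidneys. It fell by 2.15 ± 0.15 in NR against NS kidneys (adjusted p = 1.75e-07), was higher in HR than in NR kidneys (1.57 ± 0.15, adjusted p = 3.14e-05), and its injury effects differed by 1.60 ± 0.21 (adjusted p = 0.000866).

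Cyb5b, an outer mitochondrial membrane cytochrome b5, fell in both injury comparisons, and so did Cyp51, the lanosterol demethylase of cholesterol synthesis. Cyp51 fell by 2.08 ± 0.19 in HR against HS (adjusted p = 5.65e-06) and by 1.95 ± 0.19 in NR against NS kidneys (adjusted p = 2.3e-06). Hmox1, which breaks down haem, rose by 2.77 ± 0.28 in HR against HS (adjusted p = 1.17e-05) and by 2.87 ± 0.28 in NR against NS kidneys (adjusted p = 2.3e-06). Alas1, the first enzyme of haem synthesis, rose by 1.55 ± 0.18 in HR against HS (adjusted p = 3.43e-05) and by 1.40 ± 0.18 in NR against NS kidneys (adjusted p = 2.51e-05). Ephx2, the soluble hydrolase that removes EETs, had injury effects that differed by 0.59 ± 0.15 (adjusted p = 0.0165), with 102 ± 14.7 FPKM in HR, 88.8 ± 6.56 in NR, 135 ± 14.1 in HS and 179 ± 3.52 in NS kidneys (SD, n = 3 each).

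A list of 12 other known targets of PPAR alpha was read beside Cyp4a10 and Cyp4a14, and 11 of them were tested. In NR against NS kidneys 5 rose and 0 fell, where 41.6% of all tested genes were higher and 30.1% lower. In HR against HS kidneys 4 rose and 0 fell, where 33.0% of all tested genes were higher and 19.4% lower. The 5 and 4 rises of 11 were thus near the share of all genes. In HR against NR kidneys 1 was higher and 3 lower, where 24.7% of all tested genes were higher and 17.4% lower. In HS against NS kidneys, where Cyp4a14 was higher, limma called 0 and an unadjusted p under 0.05 was reached by 0. Ppara itself was called in no comparison. HR2 was the lowest HR library for Cyp4a10, Cyp4a14 and Cyp4a31, and Pdk4, Plin2, Angptl4 and Ehhadh, named here after their values were seen, were lowest in HR2 within the HR group as well. What set HR2 apart was not tested.

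Markers of other cells moved with injury too. The 5 late proximal tubule markers fell in both injury comparisons. Of all tested genes, 30.1% were lower in NR against NS and 19.4% in HR against HS kidneys. The 5 markers had summed FPKM of 486 to 651 in HR, 309 to 364 in NR, 1631 to 2167 in HS and 2482 to 2866 in NS libraries. In HS against NS kidneys, where the sums did not overlap, limma called 0 of these 5 and 4, all lower, had an unadjusted p under 0.05. The share of all genes with such a p was not computed. Neutrophil markers, 6 of 7 tested, rose 6 of 6 in NR against NS and 5 of 6 in HR against HS kidneys. Of all tested genes, 41.6% were higher in NR against NS and 33.0% in HR against HS kidneys. The 7 neutrophil markers had summed FPKM of 23.2 to 110.2 in HR, 130.2 to 291 in NR, 1.66 to 4.19 in HS and 2.18 to 14.8 in NS libraries. The part of these cells in the P450 levels was not tested.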

How the data were processed

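RNA sequencing was done on total RNA of frozen kidneys from 12 mice, 3 per group, and the labels give 1 batch number for all libraries. FPKM values deposited by the authors, a count of fragments scaled by gene length and library depth, filled 1 table of 25553 gene symbols. The submitters' processing notes name DESeq2, HTSeq and the build mm10. The aligner and annotation behind the values are not stated there. FPKM totals were 465148 to 494620 per library. Whole reads were recovered from the steps between FPKM values for 25551 genes (tolerance 1e-06), which gave totals of 32341191 to 34976518. They served to state depth and for 1 alternative.

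The 12357 genes that reached 1 FPKM in 3 libraries or more were tested on the log2(FPKM + 1) scale. The tool was limma (version 3.58.1, under R 4.3.3), its variance prior following the mean. A single fit of 4 group means gave all 5 contrasts, and calls needed an adjusted p (Benjamini-Hochberg) under 0.05. In simulated data 200 of 12357 genes were changed in NR, and 89% of those changed by 1 on the log2 scale were recovered in NR against NS. In the deposited data 71.7% of genes were called there, so the 89% is not the recovery in those data. Replicates are mice per the series' design text, and p-values measure the spread between these 12 mice. The genes of the family, the role classes and the lists of partner genes, PPAR alpha targets and cell markers were chosen with earlier results of these data known.

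Named in the text are up to 10 called genes in each direction of a comparison, the most abundant gene of each class, every gene with a group mean of at least 20 FPKM, and up to 4 called partner genes per comparison. Cyp39a1 and the genes of other lists and those below the filter are named outside this rule. Some genes that the rule names are not reported here. Positions are from GENCODE M21 (GRCm38), and promoter sequences from RefSeq, which had an entry for 61 of the 79 genes. The share of a transcript found elsewhere was computed from 75-base windows of its longest coding transcript. The read length is not given in the sources used here.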

Additional observations from a re-analysis of the deposited data

Results flagged for a closer look

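The effect of injury differed between preconditioned and normoxic mice in 5 P450 genes by the interaction test of limma. The difference, as the HR minus HS change less the NR minus NS change on the log2 scale, was 2.38 for Cyp4a12a, 0.86 for Cyp2a4, 0.76 for Cyp2j5, 0.64 for Cyp2u1 and -0.74 for Cyp2j9. Cyp4a12a was the one gene of the 5 called in both injury comparisons with opposite signs. For Cyp2j5 the injury effect was negative in both and smaller in preconditioned mice, and Cyp2a4 and Cyp2u1 were called with injury in normoxic mice alone. The Cyp2j9 difference was called under 10 of 20 alternatives, the others under all other fits and rescalings that gave a value. Of the 5 differences that of Cyp4a12a alone was at least 2-fold. The Cyp2u1 difference was 1.67 with a pseudocount of 0.1 and 2.08 by voom on recovered reads. The difference for Cyp4a12a includes the low level of that gene in HS kidneys, which enters the effect in preconditioned mice.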

How the results depend on the processing

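Alternatives were voom on recovered reads, a replicate block, no filter, fitting without the trend, a 2-fold minimum (for counts of genes alone), quantile normalization, a pseudocount of 0.1, leaving out each library, a filter at FPKM 5, fits of the compared groups alone and median-ratio rescaling. Summing near-identical pairs was added after seeing the data. Of 1377 values recomputed for 64 named results, 1281 kept their call, 96 lost it and 0 reversed, and 50 results kept it under every alternative other than the 2-fold minimum, which these values leave out. Called and at least 2-fold were 12 P450 genes in NR against NS, 10 in HR against HS, 4 in HR against NR and 1 in the interaction. The share of all genes that met both limits is not given here, so these counts have no background to be read against. Fitting only the compared groups gave 8 genes in HR against NR, with 27.3% of all genes called, and 7 in HS against NS (Cyp2c23, Cyp2d22, Cyp2d26, Cyp4a10, Cyp4a12a, Cyp4a14 and Cyp4a31), with 2.45%. HS against NS gave 1 with no filter, quantile normalization, no trend or voom, with 0.227%, 0.348%, 0.413% and 0.51% of all genes called. The interaction gave 3 with a filter at FPKM 5, where 23 P450 genes were tested and 30.7% of all genes were called. Leaving out 1 library gave 25 to 29 genes in NR against NS, 20 to 23 in HR against HS, 11 to 18 in HR against NR, 1 to 3 in HS against NS and 4 to 8 in the interaction. The 8 came without NR2 and added Cyp7b1, Cyp27a1 and Cyp20a1. For most of these fits the share of all genes called is not given here, so the ranges describe the stability of the counts alone. The summed NS level was 5563 FPKM after median-ratio rescaling. The cause of these shifts was not tested. The labels do not say that a replicate number pairs mice. Deviations of same-numbered libraries correlated between -0.25 and 0.17. Libraries with different numbers were not compared, so these values do not settle whether mice were paired. With the replicate block the counts were 26, 21, 14, 1 and 5, in the order NR against NS, HR against HS, HR against NR, HS against NS and interaction, and Cyp4a14 was lost in HS against NS (adjusted p = 0.092). With the block 0.283% of all genes were called in HS against NS, and the other shares are not given here.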

Other observations

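The 46 P450 genes below the filter on low values were tested in a limma fit with no filter. The 25553 genes of that fit include the 12357 above the filter, so their shares are no like background for the 46. The share among all genes below the filter is not given here. Of the 46, 2 were higher and 4 lower in NR against NS kidneys, where 23.7% of all 25553 genes were higher and 17.9% lower. In HR against HS kidneys 3 were higher and 2 lower, where 16.0% and 10.9% of all genes were. Of these 3, Cyp21a1 had 2 recovered reads in each HR library and 0 in each HS library, too few to read as a rise. Cyp4f18, the mouse neutrophil enzyme that hydroxylates leukotriene B4, had 0.907, 0.423 and 0.803 FPKM in HR, 1.60, 0.990 and 1.31 in NR, 0.280, 0.364 and 0.212 in HS, and 0.378, 0.344 and 0.455 in NS kidneys. The NR libraries lay above all others. In the fit with no filter it rose in NR against NS (0.72 ± 0.12, adjusted p = 0.000789) and in HR against HS kidneys (0.40 ± 0.12, adjusted p = 0.0327), and fell in HR against NR kidneys (-0.43 ± 0.12, adjusted p = 0.0325). Cyp3a13, a xenobiotic-metabolising gene of mouse intestine and liver, had 0.250, 0.204 and 0.286 FPKM in HR, 0.473, 0.931 and 0.747 in NR, 0.0309, 0.0516 and 0.0372 in HS, and 0.0573, 0.0150 and 0.0394 in NS kidneys. Its NR libraries were highest, its HR libraries next, and both sham groups overlapped. It rose in NR against NS (0.72 ± 0.08, adjusted p = 3.95e-05) and in HR against HS kidneys (0.26 ± 0.08, adjusted p = 0.0312), and its injury effects differed by -0.46 ± 0.11 (adjusted p = 0.0312). Cyp1a1, the classic target of the aryl hydrocarbon receptor, had 0.0834, 0.203 and 0.0832 FPKM in HR, 0.191, 0.0429 and 0.0840 in NR, 0.378, 0.242 and 0.499 in HS, and 0.362, 0.347 and 0.322 in NS kidneys. Every RIRI library lay below every sham library. It fell by 0.28 ± 0.07 in NR against NS (adjusted p = 0.00928) and by 0.29 ± 0.07 in HR against HS kidneys (adjusted p = 0.0141). Below 1 FPKM the pseudocount of 1 holds such fold changes down. Mean FPKM in NR and NS kidneys was 0.717 and 0.037 for Cyp3a13, and 0.106 and 0.343 for Cyp1a1. These genes were picked for description after their values were seen.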
